A study of Mus musculus with 2 samples.

Results

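The serine synthesis and folate one-carbon enzymes of mouse eye organoids were followed as 8 genes, Phgdh, Psat1, Psph, Shmt1, Shmt2, Mthfd1, Mthfd1l and Mthfd2, which were taken by symbol from the 27998 genes of the deposited count tables and were each found on 1 line. Organoids had been grown from mouse embryonic stem cells heterozygous for a GFP knock-in at Rax, the gene that marks the future eye, and single cells were sequenced on culture day 6, when optic vesicles begin to bulge, and on culture day 4, when the eye field forms. Both days share the genotype and the culture method, and no group was treated otherwise. All cells came from 1 embryonic stem cell line. The tissue was labelled eye organoid and the cells retina progenitors. Each day was 1 library that pooled 3 biological experiments, and its cells were not traced to an experiment, so each day counted as 1 sample and no test between days or groups of cells was possible.

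In the serine pathway a glycolytic intermediate, phosphoglycerate, is oxidised by Phgdh, aminated by Psat1 and dephosphorylated by Psph to give serine. Shmt1 in the cytosol and Shmt2 in mitochondria then split serine into glycine and a one-carbon unit carried by folate. Mthfd2 oxidises that unit in mitochondria, Mthfd1l releases it as formate, and Mthfd1 takes formate up again in the cytosol for the synthesis of purines, thymidylate and methyl groups. Neural tube closure and the growth of early neural epithelium are known to need this traffic.

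The filter left 6641 cells and 87800738 unique molecular identifiers (UMIs, the count of captured RNA molecules) on day 6, and 8147 cells and 98643495 UMIs on day 4. Median depth was 12514 UMIs per cell on day 6 and 11216 on day 4. The libraries shared 91 barcodes, of which 78 were among the kept cells. Levels are UMIs of the summed cells scaled to a total of 1000000 (CPM), with exact Poisson 95% intervals that cover counting error only. An enzyme was called higher or lower where the ratio of 2 groups passed 1.5-fold, its exact interval left out 1 and its mean level reached 10 CPM. This is a rule of size, not a test, and a call in these pooled libraries does not tell culture days from libraries. All 8 enzymes reached 10 CPM in all 14 comparisons.

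Cells were grouped by the raw UMIs of a single marker each. The limit was 5 UMIs for Dppa5a, a gene of naive pluripotent cells, and for Col4a1, a basement membrane collagen, and 2 UMIs for Fgf5 (primed epiblast), Six6 (optic vesicle), Fezf2 (anterior forebrain), Wnt8b (dorsal forebrain) and Sox10 (neural crest). On day 6 this gave 1877 Six6 cells, 600 Fezf2 cells, 239 Wnt8b cells, 67 Col4a1 cells and 485 Dppa5a cells, and on day 4 it gave 71 Fezf2 cells, 2911 Fgf5 cells and 1329 Dppa5a cells. Cells with no marker over its limit made up 43.9% of day 6 and 35.9% of day 4, and cells with several markers 6.13% of day 6 and 10.9% of day 4. The Six6 cells held 382.6 CPM of Pax6 and 177.6 CPM of Rax, both eye field genes, and the Fezf2 cells of day 6 also held Pax6 (205.4 CPM). The Fgf5 cells held 652 CPM of Dnmt3b and 423 CPM of Pim2, both of the primed epiblast list, against 39.6 CPM and 3.93 CPM in the Six6 cells of day 6. Of the naive pluripotent list the Dppa5a cells of day 6 held 279 CPM of Zfp42, 102 of Klf2 and 57.6 of Dppa3. They held less of Esrrb (21.6 CPM), Tfcp2l1 (16.2) and Tbx3 (13.1). Of the primed epiblast list they held 402 CPM of Utf1 and 71.6 of Dnmt3b, but 18.2 of Pim2 and 7.44 of Fgf5. The Col4a1 cells held 1436 CPM of Lama1 and 672.6 CPM of Dab2, which are primitive endoderm markers. The libraries thus held many cells other than those their label names, and the Six6 group of day 4 held 19 cells, too few for a comparison.

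The promoters of the 4 enzymes that were called between days or between marker groups are shown, since the comparisons of days and marker groups turn on their levels. Each is the RefSeq window of 300 bases, with 250 before the start site, on GRCm38.p6, and capitals mark the CCAAT box (letters CCAAT on either strand, so ATTGG on the printed strand in the reverse case).
Mthfd1l promoter, chr10:3972825-3973124, plus strand: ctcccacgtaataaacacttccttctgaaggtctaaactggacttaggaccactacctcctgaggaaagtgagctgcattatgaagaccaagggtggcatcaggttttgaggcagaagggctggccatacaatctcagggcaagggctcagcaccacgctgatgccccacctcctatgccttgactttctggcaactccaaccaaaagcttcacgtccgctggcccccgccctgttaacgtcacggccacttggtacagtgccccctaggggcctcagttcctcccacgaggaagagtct
Mthfd2 promoter, chr6:83317555-83317854, minus strand: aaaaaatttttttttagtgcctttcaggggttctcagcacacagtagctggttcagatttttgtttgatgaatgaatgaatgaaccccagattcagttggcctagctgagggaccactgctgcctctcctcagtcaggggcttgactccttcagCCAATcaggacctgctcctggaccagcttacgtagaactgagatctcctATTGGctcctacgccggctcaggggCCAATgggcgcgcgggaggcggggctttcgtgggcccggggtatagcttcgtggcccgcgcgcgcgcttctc
Psat1 promoter, chr19:15925010-15925309, minus strand: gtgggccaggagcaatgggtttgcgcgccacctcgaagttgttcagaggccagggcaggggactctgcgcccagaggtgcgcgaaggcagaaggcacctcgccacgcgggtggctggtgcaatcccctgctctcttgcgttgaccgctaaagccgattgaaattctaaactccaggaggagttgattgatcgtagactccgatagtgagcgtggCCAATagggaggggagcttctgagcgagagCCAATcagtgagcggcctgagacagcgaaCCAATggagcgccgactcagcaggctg
Shmt2 promoter, chr10:127522395-127522694, minus strand: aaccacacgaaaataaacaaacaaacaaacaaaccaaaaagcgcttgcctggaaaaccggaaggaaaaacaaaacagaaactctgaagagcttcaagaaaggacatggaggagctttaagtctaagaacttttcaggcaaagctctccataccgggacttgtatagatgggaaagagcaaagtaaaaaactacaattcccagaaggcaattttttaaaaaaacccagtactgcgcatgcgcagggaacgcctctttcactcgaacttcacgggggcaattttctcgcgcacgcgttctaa

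On GRCm38 the gene of Mthfd1l spans chr10:3973118-4167081, Mthfd2 chr6:83305691-83325908, Psat1 chr19:15904678-15947337 and Shmt2 chr10:127517123-127522444, and all 8 are protein coding. These spans are from the GENCODE annotation and the windows start from RefSeq, so that the Mthfd2 and Psat1 windows lie inside their spans. Mthfd2 and Psat1 held 3 CCAAT matches each in these windows, and Mthfd1l and Shmt2 held none. Over the 9 windows of the 8 enzymes (Psat1 has a second start site, with no match) Phgdh and Psph held 2 and Shmt1 and Mthfd1 held 1. Of all 32851 RefSeq promoter windows of the same length 37.4% held at least 1. The C/EBP-ATF response element TGATGNAA, bound by the stress factor Atf4, is in 3.97% of all windows, the E-box CACGTG in 7.15%, and the E2F sites TTTCCCGC or TTTGGCGC in 1.56%. None of these was found in the 9 windows on either strand, which says nothing of sites elsewhere. These motifs do not overlap one another.

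Between the days the summed level of the enzymes was close, while Mthfd1l, the last mitochondrial step, was lower on day 6. The 8 together made up 641 CPM on day 6 and 635 CPM on day 4. Mthfd1l, the mitochondrial enzyme that frees formate, had 2074 UMIs or 23.6 CPM (95% interval 22.6 to 24.7) on day 6, against 4065 UMIs or 41.2 CPM (40.0 to 42.5) on day 4, a ratio of 0.573 (0.543 to 0.604). It was the 1 enzyme of 8 called lower, where 6.28% of the 6699 genes measured were called lower, and 0 of 8 were called higher, where 13.3% of the genes were. These counts do not set the enzymes apart from other genes. The median log2 ratio was 0.01 for the 8 enzymes and 0.14 for all genes measured.

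The enzymes around it moved less. Mthfd2, which works just before Mthfd1l in mitochondria, had 78.1 CPM on day 6 and 94.2 CPM on day 4 (ratio 0.829, 0.804 to 0.855). Mthfd1, the cytosolic enzyme that uses formate, had 44.0 CPM on day 6 and 55.5 CPM on day 4 (ratio 0.793, 0.760 to 0.826). Phgdh, the entry enzyme of serine synthesis, ran in the opposite direction and had 194.9 CPM on day 6 and 155.7 CPM on day 4 (ratio 1.25, 1.23 to 1.28). The intervals of these 3 ratios left out 1, but none passed 1.5-fold. Psat1 (ratio 1.03), Psph (0.987), Shmt1 (1.04) and Shmt2 (1.15) differed by less.

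The same enzyme stood out between the Six6 cells of day 6 and the Fgf5 cells of day 4. Mthfd1l had 21.7 CPM in the Six6 cells (20 to 23.6) and 45.1 CPM in the Fgf5 cells (43.0 to 47.3), a ratio of 0.481 (0.437 to 0.530). It was the 1 enzyme called lower, where 8.08% of genes were, and 0 were called higher, where 16.9% were. It kept this call under all 13 alternative settings run, with ratios of 0.437 to 0.490. Mthfd2 stood just inside the limit, with 71.6 CPM in the Six6 cells and 105.6 CPM in the Fgf5 cells (ratio 0.677, 0.641 to 0.716), and passed it where ratios were centred on the median of all genes, where mitochondrial and ribosomal protein UMIs were left out of the totals, or where the 5% deepest cells were left out. Mthfd1 had 44.5 CPM in the Six6 cells and 58.9 CPM in the Fgf5 cells (ratio 0.756), and Phgdh 192.0 CPM in the Six6 cells and 159.9 CPM in the Fgf5 cells (ratio 1.20).

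In the Dppa5a cells the days lay close together. Mthfd1l had 29.3 CPM in the day 6 Dppa5a cells (25.4 to 33.7) and 31.8 CPM in those of day 4 (29.0 to 34.8), a ratio of 0.923 whose interval of 0.779 to 1.09 held 1. None of the 8 enzymes was called in this comparison, where 6.09% of genes were called higher and 2.55% lower. Psat1, the aminotransferase of serine synthesis, came nearest to the limit, with 90.2 CPM in the day 6 cells and 120.6 CPM in the day 4 cells (ratio 0.748, 0.681 to 0.820). Whether the Mthfd1l ratio differs between Dppa5a cells and the rest was not tested, as the libraries have no replicates.

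**Figure D1:**
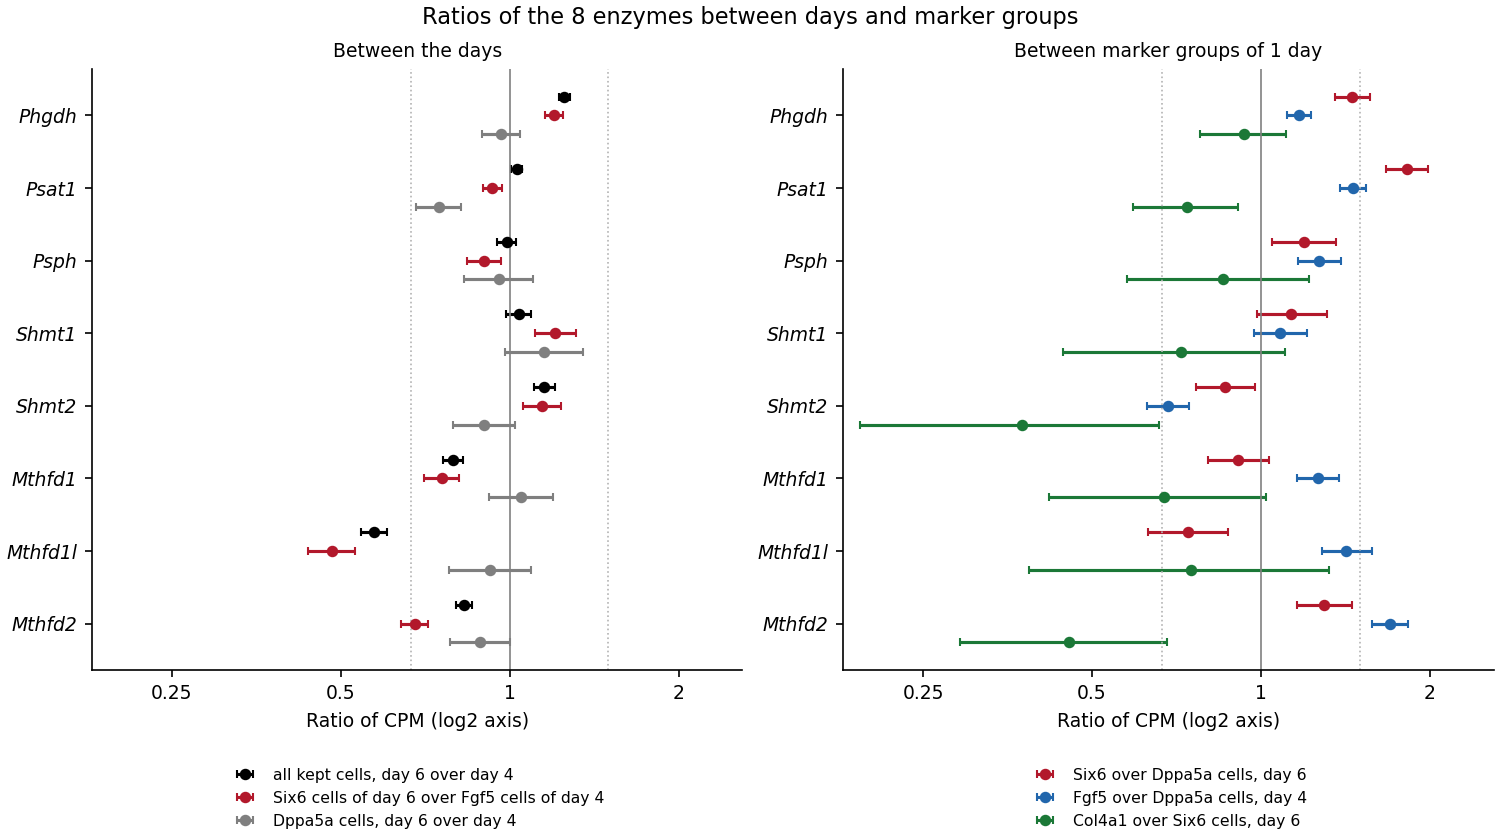
Ratios of CPM for the 8 enzymes on a log2 axis, between the days (left) and between marker groups of 1 day (right). Points are ratios, bars are exact 95% intervals for counting error, and dotted lines mark 1.5-fold either way. Mthfd1l lies at 0.573 for all kept cells, at 0.481 for Six6 cells of day 6 over Fgf5 cells of day 4, and at 0.923 for the Dppa5a cells.

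Across the marker groups the serine synthesis enzymes had their highest levels in the Fezf2 and Wnt8b cells of day 6 and their lowest in the Dppa5a cells of day 6. Phgdh levels, in falling order, were 244.5 CPM in Wnt8b cells, 219.7 in Fezf2 cells, 192.0 in Six6 cells and 179.4 in Col4a1 cells of day 6, 159.9 in Fgf5 cells and 155.1 in Fezf2 cells of day 4, 136.7 in Dppa5a cells of day 4 and 132.0 in Dppa5a cells of day 6. The intervals of the Wnt8b cells (228.5 to 261.4) and the Fezf2 cells of day 6 (210.0 to 229.8) overlapped, as did those of both Dppa5a groups. Psat1 levels, in falling order, were 206.2 CPM in Fezf2 cells and 196.9 in Wnt8b cells of day 6, 176.0 in Fgf5 cells of day 4, 163.9 in Six6 cells of day 6, 129.4 in Fezf2 cells of day 4, 120.9 in Col4a1 cells of day 6, 120.6 in Dppa5a cells of day 4 and 90.2 in Dppa5a cells of day 6. The Dppa5a cells of day 6 lay below all other groups, with an interval of 83.2 to 97.6 CPM that only just met that of the Col4a1 cells (97.1 to 148.8). Psph, the phosphatase that ends the pathway, ranged from 41.3 CPM in the Dppa5a cells to 68.6 CPM in the Wnt8b cells, both of day 6. Close to its low end were the Col4a1 cells of day 6 (42.1 CPM, 28.6 to 59.8) and the Dppa5a cells of day 4 (43.2 CPM, 39.9 to 46.6).

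The folate enzymes had other orders. Mthfd1l was highest in the Fgf5 cells of day 4 (45.1 CPM) and lay between 16.3 and 29.3 CPM in the 5 marker groups of day 6. Mthfd2 was highest in the same Fgf5 cells (105.6 CPM) and in the Fezf2 cells of day 6 (96.6 CPM), and lowest in the Col4a1 cells (32.6 CPM). Mthfd1 ranged from 29.9 CPM in the Col4a1 cells of day 6 to 58.9 CPM in the Fgf5 cells of day 4. Shmt2, the mitochondrial serine hydroxymethyltransferase, was at 59.0 CPM in the Fezf2 cells, 55.8 in the Wnt8b cells and 50.3 in the Dppa5a cells of day 6 and at 55.8 in the Dppa5a cells of day 4, whereas it was at 16.3 CPM in the Col4a1 cells of day 6 and 19.5 CPM in the Fezf2 cells of day 4. Shmt1, its cytosolic partner, covered the narrowest span, 27.1 CPM in Fezf2 cells to 39.7 CPM in Six6 cells of day 6. UMIs of the 3' kit count RNA ends, so levels were not divided by length, and they are set side by side between groups rather than between genes.

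**Figure D2:**
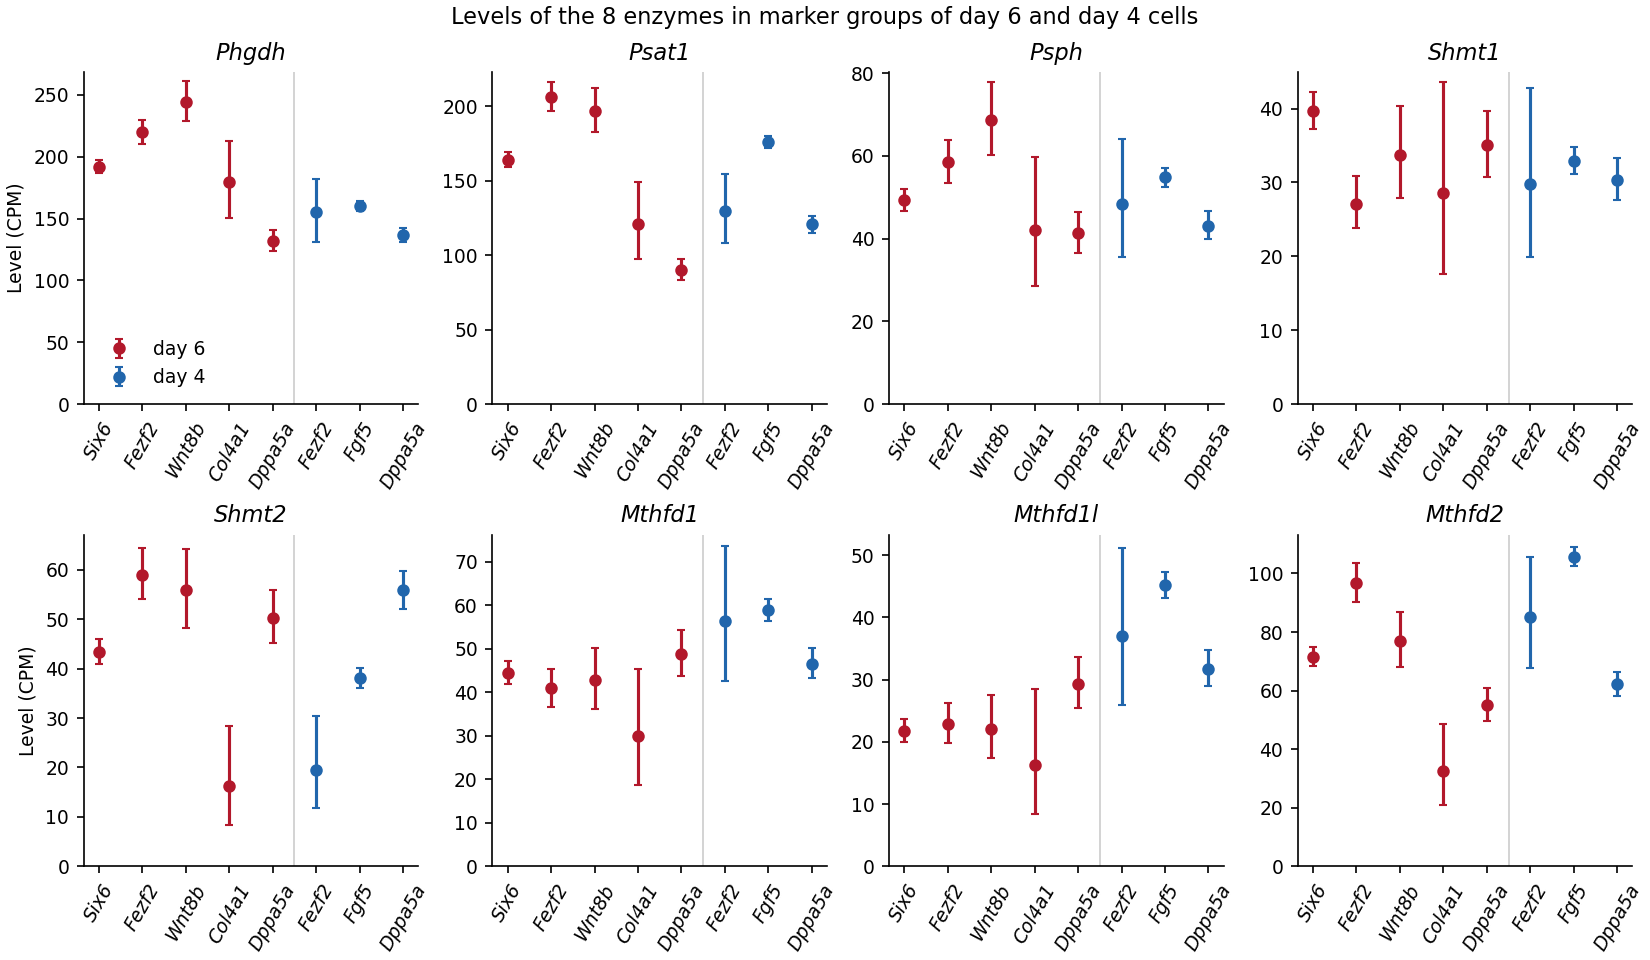
Level of each of the 8 enzymes in CPM in the marker groups of day 6 (red, left of the line) and day 4 (blue), with exact Poisson 95% intervals. Phgdh and Psat1 are lowest in the Dppa5a cells, Mthfd1l and Mthfd2 are highest in the day 4 Fgf5 cells, and the Col4a1 and day 4 Fezf2 cells have wide intervals because they hold 67 and 71 cells.

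Within day 6 the Six6 cells held more Psat1 than the Dppa5a cells. Psat1 had 4217 UMIs or 163.9 CPM in the Six6 cells and 618 UMIs or 90.2 CPM in the Dppa5a cells, a ratio of 1.82 (1.67 to 1.98). It was the 1 enzyme called higher, where 32.3% of genes were, and 0 were called lower, where 13.2% were. The call was lost with ratios centred on the median of all genes (ratio 1.47), which lay at 0.31 on the log2 scale. Phgdh stood at 192.0 CPM in the Six6 cells and 132.0 CPM in the Dppa5a cells (ratio 1.45, 1.35 to 1.56), inside the limit. Mthfd1l stood at 21.7 CPM in the Six6 cells and 29.3 CPM in the Dppa5a cells (ratio 0.741, 0.630 to 0.875), and was past the limit with the same centring or with totals without mitochondrial and ribosomal protein UMIs.

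Within day 4 the Fgf5 cells held more Mthfd2 than the Dppa5a cells. Mthfd2 had 105.6 CPM in the Fgf5 cells and 62.2 CPM in the Dppa5a cells, a ratio of 1.70 (1.58 to 1.82). It was the 1 enzyme called higher, where 17.9% of genes were, and 0 were called lower, where 8.17% were. Psat1 (176.0 CPM in the Fgf5 cells, 120.6 CPM in the Dppa5a cells, ratio 1.46) and Mthfd1l (45.1 CPM in the Fgf5 cells, 31.8 CPM in the Dppa5a cells, ratio 1.42) were inside the limit on the same side. Shmt2 was inside it on the other side, with 38.1 CPM in the Fgf5 cells and 55.8 CPM in the Dppa5a cells (ratio 0.682, 0.626 to 0.743), and was called lower under 5 of 13 alternatives, with higher or lower marker limits, with centring, with totals without mitochondrial and ribosomal protein UMIs and without the 5% deepest cells (ratio as low as 0.577). The Shmt2 share of all Shmt2 and Shmt1 UMIs was 53.7% in the Fgf5 cells (Clopper-Pearson 95% interval 51.8% to 55.5%) and 64.8% in the Dppa5a cells (62.1% to 67.4%). The intervals of these shares did not overlap. The call on Mthfd2 was lost with centring, with lower marker limits and with cells of several markers kept, and its ratio was as low as 1.41.

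Among the neural groups of day 6 no enzyme passed the limit with the main settings. Of 8, 0 were called in Fezf2 over Six6 cells, where 2.44% of genes were called higher and 1.93% lower, and 0 in Wnt8b over Six6 cells, where 3.07% were called higher and 2.43% lower. Shmt1 and Shmt2 differed in opposite directions between the Fezf2 and the Six6 cells. Shmt1 had 27.1 CPM in Fezf2 cells and 39.7 CPM in Six6 cells (ratio 0.684, 0.591 to 0.789), and Shmt2 59.0 CPM in Fezf2 cells and 43.5 CPM in Six6 cells (ratio 1.36, 1.22 to 1.51). The Shmt2 share of both was 68.5% in Fezf2 cells (65.0% to 71.8%) and 52.3% in Six6 cells (50.1% to 54.4%). This share was 62.3% in Wnt8b cells and 59.0% in Dppa5a cells of day 6. In the Fezf2 cells of day 4 it was 39.6% (25.8% to 54.7%). Shmt1 stayed inside the limit under 10 of 13 alternatives and was called lower with equal weight per cell, with thinning or with higher marker limits. Mthfd2 followed Shmt2, with 96.6 CPM in Fezf2 cells and 71.6 CPM in Six6 cells (ratio 1.35, 1.24 to 1.47). In the Wnt8b cells Psph stood at 68.6 CPM, against 49.3 CPM in Six6 cells (ratio 1.39, 1.21 to 1.60), and Phgdh at 244.5 CPM, against 192.0 CPM (ratio 1.27, 1.18 to 1.37).

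The Col4a1 cells of day 6 held less Shmt2 and Mthfd2 than the Six6 cells. Shmt2 had 12 UMIs or 16.3 CPM (8.42 to 28.5) in the 67 Col4a1 cells and 1118 UMIs or 43.5 CPM in the Six6 cells, a ratio of 0.375 (0.193 to 0.658). Mthfd2 had 24 UMIs or 32.6 CPM in the Col4a1 cells and 1841 UMIs or 71.6 CPM in the Six6 cells, a ratio of 0.456 (0.291 to 0.680). These were 2 of 8 called lower, where 22.2% of genes were, and 0 were called higher, where 30.2% were, so the count of lower calls was near that background. Mthfd1l, the other mitochondrial enzyme, was not called (16.3 CPM in the Col4a1 cells and 21.7 CPM in the Six6 cells, ratio 0.750, 0.385 to 1.32), and cytosolic Mthfd1 (ratio 0.672, 0.419 to 1.02) was called lower under 4 of 12 alternatives. Phgdh did not follow them, with 179.4 CPM in the Col4a1 cells and 192.0 CPM in the Six6 cells (ratio 0.934, 0.780 to 1.11). The Col4a1 cells were also shallower (median 9674 UMIs against 12832 in the Six6 cells). They had fewer S phase UMIs (0.173% of the summed UMIs of the group against 0.391%). The part of either in these ratios was not tested.

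Only 25 day 6 cells and 0 day 4 cells passed the Sox10 limit, too few for a comparison. With a limit of 1 UMI, chosen after the data were seen, 63 day 6 cells were found, which held 112.7 CPM of the neural crest gene Tfap2b. In them Psat1 stood at 225 CPM, Mthfd2 at 108.7 CPM and the 8 enzymes together at 740 CPM, next to 742 CPM in the Wnt8b cells and 731 CPM in the Fezf2 cells of day 6.

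For Mthfd1l between the days, and Psat1 in Six6 over Dppa5a cells of day 6, the share of cells with a UMI followed the levels. With each cell thinned to 5000 UMIs, Mthfd1l was seen in 10.8% of day 6 cells (10.1% to 11.5%) and 18.2% of day 4 cells (17.4% to 19.1%), and without thinning in 25.4% and 36.8% of the cells of those days. The thinning left out 182 day 4 cells and 0 day 6 cells. Psat1 was seen in 50.6% of Six6 cells and 32.2% of Dppa5a cells of day 6 after thinning. No cell type in these organoids is known to lack these enzymes, so no background share could be set beside them. The variance of thinned counts over cells was at most 1.25 times the mean on day 6 and at most 1.35 times on day 4, for any of the 8 enzymes over all kept cells, where a Poisson count has a variance equal to its mean. It was higher in some smaller groups. In day 6 cells with 2 or more Ddit3 UMIs it was 2.98 times the mean for Psat1 and 1.75 times for Psph. The exact intervals of levels and ratios do not cover this excess.

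Around the 8 enzymes, 99 genes of 9 related lists were read, against the 13.3% of all genes called higher and 6.28% called lower on day 6. Of 7 genes of folate uptake, storage and reduction, 4 could be measured between the days and 1 was called higher and 0 lower (median log2 ratio 0.40), and of 10 other folate-dependent enzymes 4 could be measured, with 1 higher and 0 lower (0.29). Mthfd2l, a second mitochondrial form of Mthfd2, had 39.6 CPM on day 6 and 21.1 CPM on day 4 (ratio 1.88, 1.78 to 1.98), opposite in direction to Mthfd1l and Mthfd2. Slc19a1, the reduced folate carrier, had 14.8 CPM on day 6 and 8.75 CPM on day 4 (ratio 1.69, 1.55 to 1.84). In the 4 genes of the glycine cleavage system 0 were called (0.28), and Gcsh had 239.7 CPM on day 6 and 165.7 CPM on day 4. Of the genes of the methionine cycle and transsulfuration (4 of 9 measured, median 0.30), of serine and glycine carriers and use (6 of 11, median 0.28), of purine synthesis (8 of 8, median 0.09) and of the MYC family (3 of 6, median 0.39), 0 were called in either direction.

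The integrated stress response list, whose factor Atf4 is known to drive serine pathway genes, had 2 of 9 measured genes lower and 0 higher on day 6 (median -0.08), where 6.28% of all genes were lower and 13.3% higher. Ddit4, a stress-induced brake on growth signalling, had 37.9 CPM on day 6 and 96.2 CPM on day 4 (ratio 0.394), and Nupr1 5.54 CPM on day 6 and 18.3 CPM on day 4 (ratio 0.303). Of 31 measured S phase genes 3 were higher and 1 was lower (median 0.33), both counts below those shares. Among the higher ones was Rrm2 with 230.6 CPM on day 6, against 143.7 CPM on day 4.

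Mthfd2l, Tyms and Folr1 had ratios farther from 1 than any of the 8 enzymes in Six6 over Dppa5a cells of day 6. Mthfd2l had 51.7 CPM in the Six6 cells of day 6 and 26.1 CPM in the Fgf5 cells of day 4 (ratio 1.98, 1.82 to 2.15), and 6.42 CPM in the Dppa5a cells of day 6 (ratio of Six6 over Dppa5a cells 8.05, 5.96 to 11.1). Tyms, which makes thymidylate from folate one-carbon units, had 127.7 CPM in the Six6 cells and 48.4 CPM in the Dppa5a cells of day 6 (ratio 2.64). Folr1, a folate receptor chosen after its values were seen, ran the other way, with 6.02 CPM in the Six6 cells and 63.6 CPM in the Dppa5a cells (ratio 0.0947), and it had 74.7 CPM in the Col4a1 cells. In Six6 over Dppa5a cells of day 6 the glycine cleavage system had 3 of 4 genes higher, purine synthesis 3 of 8 and the S phase list 22 of 31, all with 0 lower, and the integrated stress response 6 of 9 lower and 1 higher. Of all genes 32.3% were called higher and 13.2% lower there, and the share for purine synthesis was near that background.

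**Figure D3:**
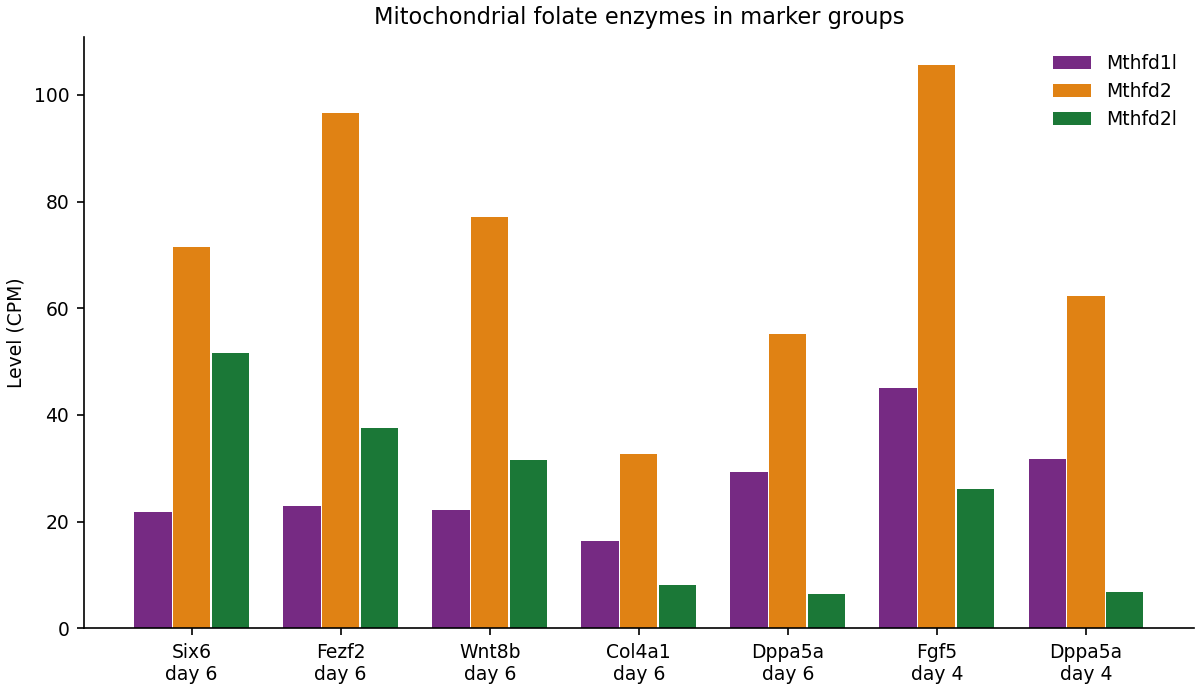
Levels in CPM of 3 mitochondrial folate enzymes, Mthfd1l, Mthfd2 and Mthfd2l, in marker groups of day 6 and day 4, as bars from 0 without error bars. Mthfd2l is at 51.7 CPM in the Six6 cells and 26.1 CPM in the Fgf5 cells, while Mthfd1l is at 21.7 CPM in the Six6 cells and 45.1 CPM in the Fgf5 cells.

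Levels of the enzymes across the 8 marker groups were set against each other as log2 levels, as a description with 8 points that share libraries. Mthfd1 and Mthfd1l were the pair most alike (Pearson r = 0.94), followed by Psat1 and Psph (0.90), Phgdh and Psat1 (0.83) and Phgdh and Psph (0.81). Phgdh and Mthfd1l ran opposite (-0.56). Among 4805 genes at 20 CPM or more on average, the gene most like each enzyme was Rspry1 for Phgdh (0.97), Ipo7 for Psat1 (0.99), Med7 for Psph (0.93), Sdhaf4 for Shmt1 (0.89), Ddx49 for Shmt2 (0.97), Zcchc10 for Mthfd1 (0.96), G2e3 for Mthfd1l (0.97) and Bccip for Mthfd2 (0.99). Each of these top genes had the highest r of 4805 genes over 8 points, so a value near 1 can come from that choice alone. The r values of this paragraph were not tested.

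Summed over cells, those with Ddit3 transcripts held more Shmt2 on both days, more Psph on day 6 and more Mthfd2 on day 4. Ddit3, a target of Atf4 in the integrated stress response, had 2 or more UMIs in 132 cells of day 6 and 233 of day 4, and none in 5855 cells of day 6 and 7207 of day 4. On day 6 Psph had 93.5 CPM in the Ddit3 cells and 49.3 CPM in cells without Ddit3 (ratio 1.90, 1.62 to 2.20). Shmt2 had 73.3 CPM in the Ddit3 cells and 47.0 CPM in cells without it (ratio 1.56, 1.31 to 1.85). These were 2 of 8 called higher, where 7.86% of genes were, and 0 were called lower, where 5.18% were. On day 4 Shmt2 had 66.7 CPM in the Ddit3 cells and 40.1 CPM in cells without it (ratio 1.66, 1.43 to 1.92), and Mthfd2 141.1 CPM in the Ddit3 cells and 90.2 CPM in cells without it (ratio 1.56, 1.41 to 1.73). These too were 2 of 8 called higher, where 7.23% of genes were, and 0 were called lower, where 5.2% were.

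Mthfd2 on day 6 and Psph on day 4 lay just inside the limit. Mthfd2 on day 6 had 105.5 CPM in the Ddit3 cells and 74.5 CPM in the others (ratio 1.41, 1.22 to 1.63), and Psph on day 4 had 72.8 CPM in the Ddit3 cells and 51.1 CPM in the others (ratio 1.42, 1.24 to 1.63). The summed level of Phgdh showed no such difference, with ratios of 1.02 on day 6 and 0.990 on day 4. Psat1 had ratios of 1.07 and 1.22 on those days. With cells thinned to 5000 UMIs, fewer Ddit3 cells of day 6 held a UMI of either. Phgdh was seen in 42.4% of them (33.9% to 51.3%), against 57.2% of the others. Psat1 was seen in 34.1% (26.1% to 42.8%), against 50.8%. On day 4 the shares were 49.1% and 49.6% for Phgdh, and 51.3% and 47.6% for Psat1. Of 11 measured genes of the integrated stress response list, 10 were higher and 0 lower on each day, Ddit3 itself among them, where 7.86% of all genes were higher on day 6 and 7.23% on day 4. Asns, the asparagine synthetase, had 174.1 CPM in the Ddit3 cells and 95.5 CPM in the others on day 6. Mthfd2l was lower in the Ddit3 cells, with 22.3 CPM in them and 40.3 CPM in the others on day 6 (ratio 0.554, 0.400 to 0.748). Of the S phase list 16 of 31 measured genes were lower on day 6 and 5 of 30 on day 4, with 0 higher, where 5.18% of all genes were lower on day 6 and 5.2% on day 4. On day 6 the Ddit3 cells were Dppa5a cells in 18.2% and Six6 cells in 12.9%, against 7.09% and 28.9% of the cells without Ddit3. On day 4 they were Dppa5a cells in 18.0% and Fgf5 cells in 20.2%, against 16.1% and 36.7%. The part of this makeup in the ratios was not tested. The Ddit3 cells were low in mitochondrial UMIs (under 0.5%) in 36.4% on day 6 and 31.3% on day 4, against 2.02% and 2.62% of the cells without Ddit3 on those days. Without the low mitochondrial cells all 4 calls stayed, and Mthfd2 on day 6 and Psph on day 4 were called as well, which made 3 enzymes on each day. With cells thinned to 5000 UMIs the calls on Psph on day 6 and on Mthfd2 on day 4 were lost and Mthfd2 was called on day 6. Mthfd2 on day 6 was called higher under 5 of 10 alternatives in all, with ratios of 1.29 to 1.72, and Psph on day 4 under 1 of 10. Without the 5% deepest cells, a setting chosen after the data were seen, 0 enzymes were called on day 6, and with all barcodes or no upper limit on depth 0 were called on day 4.

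Cells rich in S phase transcripts held more Shmt1. The 33.3% of cells with the highest share of S phase UMIs (S-high cells) were set against the 33.3% with the lowest (S-low cells). Shmt1 had 40.6 CPM in S-high cells and 25.2 CPM in S-low cells of day 6 (ratio 1.61, 1.47 to 1.77), and 38.0 CPM in S-high cells and 25.3 CPM in S-low cells of day 4 (ratio 1.5, 1.37 to 1.65). It was the 1 enzyme of 8 called higher on each day, where 4.76% of genes were called higher and 6.46% lower on day 6, and 6.74% higher and 5.67% lower on day 4. The day 4 call lay at the limit and was lost under 7 of 10 alternatives. Phgdh had 224.8 CPM in S-high cells and 153.7 CPM in S-low cells of day 6 (ratio 1.46, 1.41 to 1.52), with a ratio of 1.27 on day 4. Dppa5a cells were 1.13% of the S-high and 16.6% of the S-low cells of day 6, and 6.15% of the S-high and 30.0% of the S-low cells of day 4. Within the Six6 cells of day 6 alone the ratio of Shmt1 was 1.30 (1.11 to 1.52), and within the Fgf5 cells of day 4 alone it was 1.5 (1.31 to 1.73), a split added after the data were seen. Shmt1 was thus inside the limit in the Six6 cells. Mthfd1 (1.44, 1.24 to 1.67), Mthfd1l (1.39, 1.13 to 1.72) and Phgdh (1.36, 1.26 to 1.46) had larger ratios there, also inside it. In the Fgf5 cells Shmt1 had the largest ratio, followed by Phgdh (1.23).

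Cells with under 0.5% mitochondrial UMIs, 210 on day 6 and 339 on day 4, held less Shmt1. Shmt1 had 31 UMIs or 16.3 CPM in these cells and 33.7 CPM in the other cells of day 6 (ratio 0.482, 0.327 to 0.686), and 61 UMIs or 21.4 CPM in these cells and 32.5 CPM in the other cells of day 4 (ratio 0.660, 0.504 to 0.851). On day 6 Mthfd1l (13.6 CPM in these cells and 23.8 CPM in the others, ratio 0.572) and Psat1 (111.7 CPM in these cells and 168.2 CPM in the others, ratio 0.664) were called lower as well. This made 3 of 8 lower and 0 higher on day 6, where 32.4% of genes were lower and 13% higher, and 1 of 8 lower and 0 higher on day 4, where 22.4% were lower and 12% higher. The share on day 6 was near that background. Phgdh on day 6 lay just inside the limit, with 131.1 CPM in these cells and 196.3 CPM in the others (ratio 0.668, 0.587 to 0.757). It stayed inside under 5 of 9 alternatives. Psph passed the limit with thinning to 5000 UMIs, and Mthfd1, whose ratio was 1.22, passed it on the higher side with centring. The calls were lost under 7 of 9 alternatives for Psat1 and 3 of 9 for Mthfd1l on day 6 and under 3 of 9 for Shmt1 on day 4, but under 0 of 9 for Shmt1 on day 6. The low mitochondrial cells were shallower than the others on day 6 (median 8151 against 12633 UMIs) and on day 4 (7500 against 11407.5). They also had fewer S phase UMIs on day 6 (0.160% against 0.351%) and on day 4 (0.155% against 0.303%). Six6 cells were 1.43% of them and 29.1% of the other day 6 cells. The part of these differences in the ratios was not tested.

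**Figure D4:**
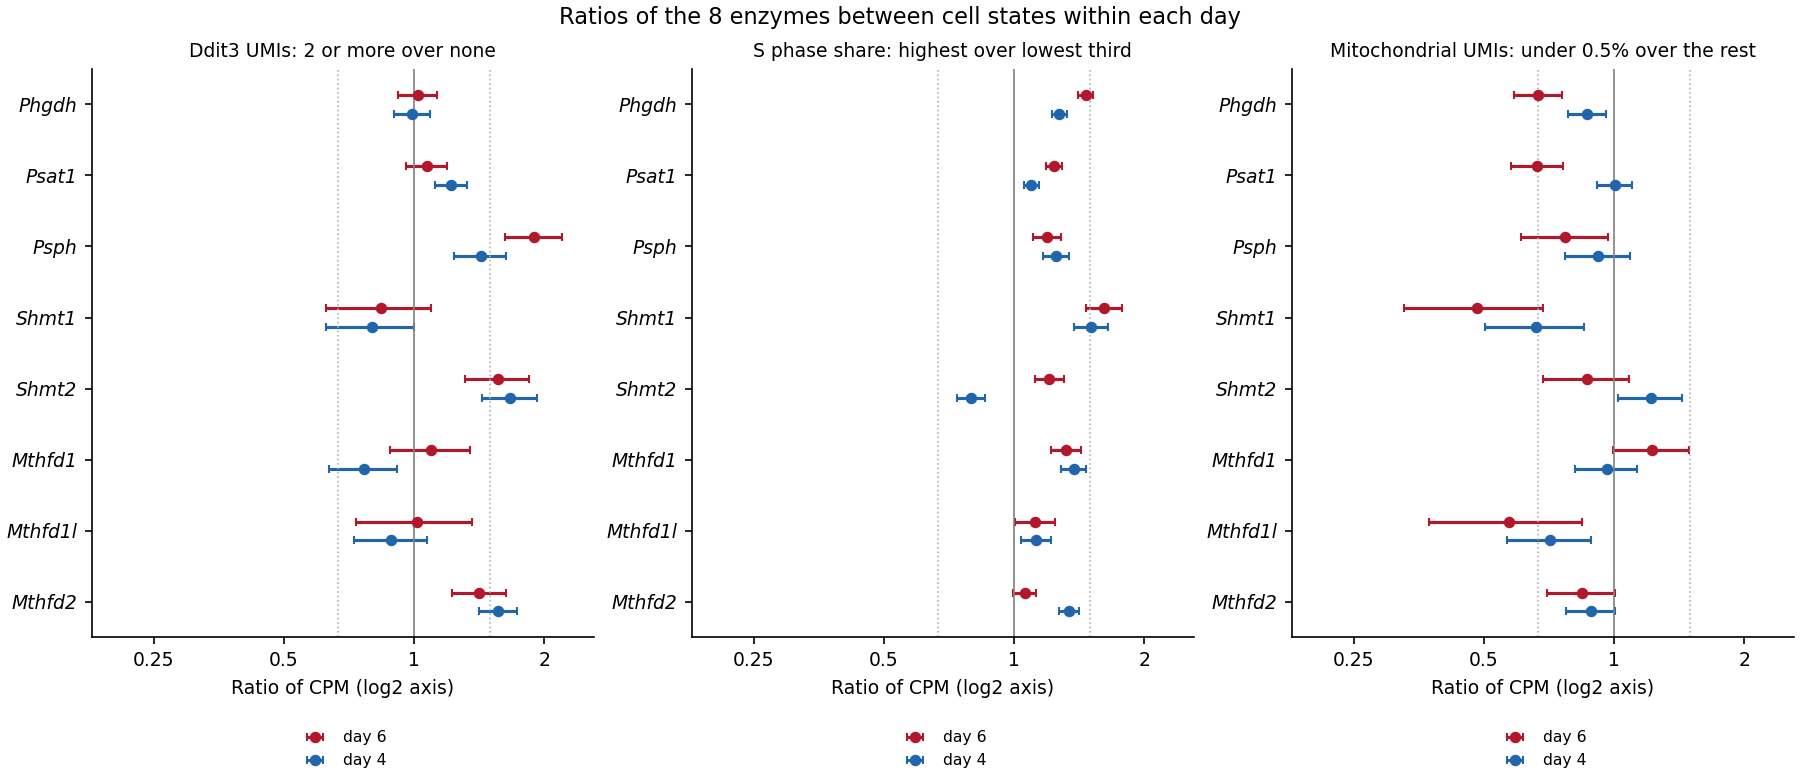
Ratios of CPM for the 8 enzymes on a log2 axis between cells with and without Ddit3 UMIs (left), between S-high and S-low cells (middle), and between cells under 0.5% mitochondrial UMIs and the rest (right), for day 6 (red) and day 4 (blue). Bars are exact 95% intervals for counting error and dotted lines mark 1.5-fold. Shmt2 stands at 1.56 and 1.66 on the left for day 6 and day 4, and Shmt1 at 1.61 and 1.5 in the middle.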

How the data were processed

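Single-cell RNA was measured in 2 libraries, 1 for day 6 and 1 for day 4. The deposited values are raw UMI counts per gene and barcode, which the authors aligned to mm10 and did not normalize. Cell Ranger (2.0.1) and Seurat (2.3.4) are listed in the submitters' notes, whereas the methods section gives newer releases of both, and which of them made the tables is not known. Cells were kept with 500 to 5000 genes, 500 to 26000 UMIs, at most 10% mitochondrial, at least 20% ribosomal protein and at most 0.5% haemoglobin UMIs, which left 6641 of 7446 barcodes on day 6 and 8147 of 9114 on day 4.

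UMIs were summed over each group and scaled to CPM. Ratios carry exact conditional binomial 95% intervals, for counting error only. Doublets were not called, but cells with several markers were left out of the marker groups. Free RNA was not removed. With 1 library per day no test was run. The genes named are the 8 enzymes, the markers, up to 4 genes of each list with the largest day ratio, and for each enzyme the gene most like it. Folr1 and Asns fall outside that rule and were picked with their values known. The enzymes, lists and limits were chosen with earlier results of these data known. The analysis used Python 3.11.15, numpy 2.4.6, pandas 2.3.3, scipy 1.17.1 and matplotlib 3.10.9. Promoters came from RefSeq (GRCm38.p6), and all 8 enzymes matched.

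The following were tried as well: no cell filter or none on depth, library totals that leave out mitochondrial and ribosomal protein UMIs, centring on the median of all genes, equal weight per cell, thinning to 5000 UMIs, lower or higher marker limits, cells with several markers kept, low mitochondrial cells left out, a 2-fold limit and no minimum level.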

Additional observations from a re-analysis of the deposited data

Results flagged for a closer look

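Shmt2 pointed in opposite directions on the 2 days between S-high and S-low cells. On day 6 it had 52.8 CPM in S-high cells and 43.8 CPM in S-low cells (ratio 1.21, 1.12 to 1.30), and on day 4 it had 37.9 CPM in S-high cells and 47.7 CPM in S-low cells (ratio 0.795, 0.736 to 0.857). The difference between the days was not tested, because each day is 1 library. Neither ratio passed 1.5-fold. Within the Fgf5 cells of day 4 alone the ratio was 1.01 (0.885 to 1.15), and within the Six6 cells of day 6 alone it was 1.26 (1.09 to 1.46). Dppa5a cells, whose Shmt2 level was 55.8 CPM on day 4, were 6.15% of the S-high and 30.0% of the S-low cells of that day, and their part in the result was not tested.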

How the results depend on the processing

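Of 158 alternative counts of called enzymes, 121 stayed at the reported count and 37 moved, and of 1264 alternative ratios of single enzymes 1120 stayed within counting error, 144 moved and 0 changed direction where called. A 2-fold limit gave 0 enzymes for the days, for Six6 over Dppa5a, Fgf5 over Dppa5a, for the Ddit3 and S phase comparisons of both days and for low mitochondrial cells of day 4, and 1 for those of day 6. Totals without mitochondrial and ribosomal protein UMIs gave 2 enzymes for Six6 over Fgf5, Six6 over Dppa5a and Fgf5 over Dppa5a, and 0 for the S phase comparison of both days and for low mitochondrial cells of day 4. Centring on the median of all genes gave 2 for Six6 over Fgf5 and 0 for low mitochondrial cells and the S phase comparison of day 4. All barcodes, or no upper limits, gave 2 for Fgf5 over Dppa5a and 0 for the Ddit3 and S phase comparisons of day 4. Without the 5% deepest cells (added after the data were seen) the counts were 2 for Six6 over Fgf5 and Fgf5 over Dppa5a and 0 for the Ddit3 comparison of day 6 and the S phase comparison of day 4. Higher marker limits gave 2 for Fgf5 over Dppa5a and 1 each for Fezf2 and Wnt8b over Six6, and keeping cells with several markers gave 0 for Fgf5 over Dppa5a. Equal weight per cell gave 1 for Fezf2 over Six6 and 4 for Col4a1 over Six6, thinning gave 1 for Fezf2 over Six6 and for Ddit3 on day 4, and leaving out low mitochondrial cells gave 0 for the S phase comparison of day 4. For the Ddit3 comparison of day 6 all barcodes, no upper limits, centring or leaving out low mitochondrial cells each gave 3 enzymes, as did the last of these on day 4. Beyond what each setting does by construction, the cause was not tested. The median of all genes lay 0.14 above 0 on the log2 scale between the days and 0.06 above it with totals without those UMIs. No paired analysis was possible because each day is 1 library. The planned Sox10 comparison had too few cells and was not run, and lower marker limits left too few Col4a1 cells for a value. Neither the intervals nor these settings cover the spread between experiments. Small groups, such as the 67 Col4a1 cells with 12 Shmt2 UMIs, have wide intervals.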
